A study of Mus musculus with 17 samples.

Results

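The 10 genes described here make and load the MHC molecules that show peptides to T cells. They were taken by symbol from 42687 genes counted in microvessels of mouse cerebral cortex, and all 10 were found in the table and passed the filter on low counts. The APP/PS1 mice, a transgenic model of amyloid deposition labelled APP, and their wild type (WT) counterparts were 10 to 11 months old. Both genotypes were given 10 mg/kg of a peptide intraperitoneally, every 2 days over 2 weeks: gp91-ds-tat, which inhibits the superoxide-producing NADPH oxidase NOX2, or the control peptide sgp91-ds-tat. The groups were WT with control peptide (5 libraries), WT with inhibitor (5), APP/PS1 with control peptide (2) and APP/PS1 with inhibitor (5). The treatment labels read NOX2 and SC, which were taken as inhibitor and control peptide. Every mouse thus received a peptide, and no untreated mice are among the samples analysed here. The extraction text speaks of ipsilateral cortices after a surgery that it does not describe, and strain, sex, transgene line and the number of mice behind a library are not given in the sources used here. Replicate numbers follow the order of the samples and pair no libraries, and if libraries of a group shared mice, the p-values would measure technical spread as well.

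MHC class I molecules are found on nearly all nucleated cells. They consist of a heavy chain (H2-K1 or H2-D1) and the light chain beta-2-microglobulin (B2m), and carry peptides that the immunoproteasome (with its subunit Psmb8) cuts in the cytosol and the transporter Tap1-Tap2 pumps into the endoplasmic reticulum. MHC class II molecules, here the chains H2-Aa, H2-Ab1 and H2-Eb1, are mostly made by professional antigen-presenting cells. Their groove is kept closed by the invariant chain Cd74 until it is degraded in endosomes. Interferon raises the genes of both pathways, through the transactivators Nlrc5 for class I and Ciita for class II. In brain, endothelial cells carry class I, whereas class II is found mainly on macrophages of the borders and perivascular spaces and on activated microglia.

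Libraries held between 7316503 and 17862965 counts. Prnp, whose promoter drives the transgenes of a widely used APP/PS1 line, separated the genotypes without overlap (301 to 555 CPM in WT and 682 to 1418 CPM in APP/PS1). App and Cybb were checked as well, and both overlapped between the genotypes. App was at 1262 to 2230 CPM in WT and 1897 to 3334 CPM in APP/PS1, and Cybb at 3.26 to 8.32 CPM and 3.69 to 9.40 CPM. Markers of endothelial cells, pericytes and astrocytes were present in every library. Their summed levels were 2235 to 4132 CPM over 6 endothelial markers, 459 to 750 CPM over 4 pericyte markers and 2508 to 4380 CPM over 4 astrocyte markers. CPM are counts scaled to the size of the library, after correction by the trimmed mean of M-values (TMM). Markers of other cells were present too: 1815 to 3079 CPM over 3 neuronal markers, and 23.8 to 7862 CPM over 3 markers of choroid plexus epithelium.

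The heavy chains were among the most abundant members. Compared per length, the order over all 17 libraries was led by B2m at 361 CPM per kb ± 136 (SD, n = 17), then H2-D1 at 60.4 ± 15.9 CPM per kb and H2-K1 at 31.4 ± 9.37 CPM per kb. Cd74 at 7.86 ± 4.39 CPM per kb and Tap2 at 7.60 ± 1.55 CPM per kb followed, and did not differ beyond their spread. The lowest members were H2-Eb1 (2.72 ± 1.47 CPM per kb), Tap1 (2.60 ± 0.791), H2-Ab1 (2.44 ± 1.05), Psmb8 (2.00 ± 0.543) and H2-Aa (1.36 ± 0.614), whose neighbours in this order overlapped within their SDs. The class II chains rested on few reads, with 22 to 135 counts of H2-Eb1 and 26 to 115 counts of H2-Aa in a library, against 442 to 1965 counts of H2-K1.

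**Figure D1:**
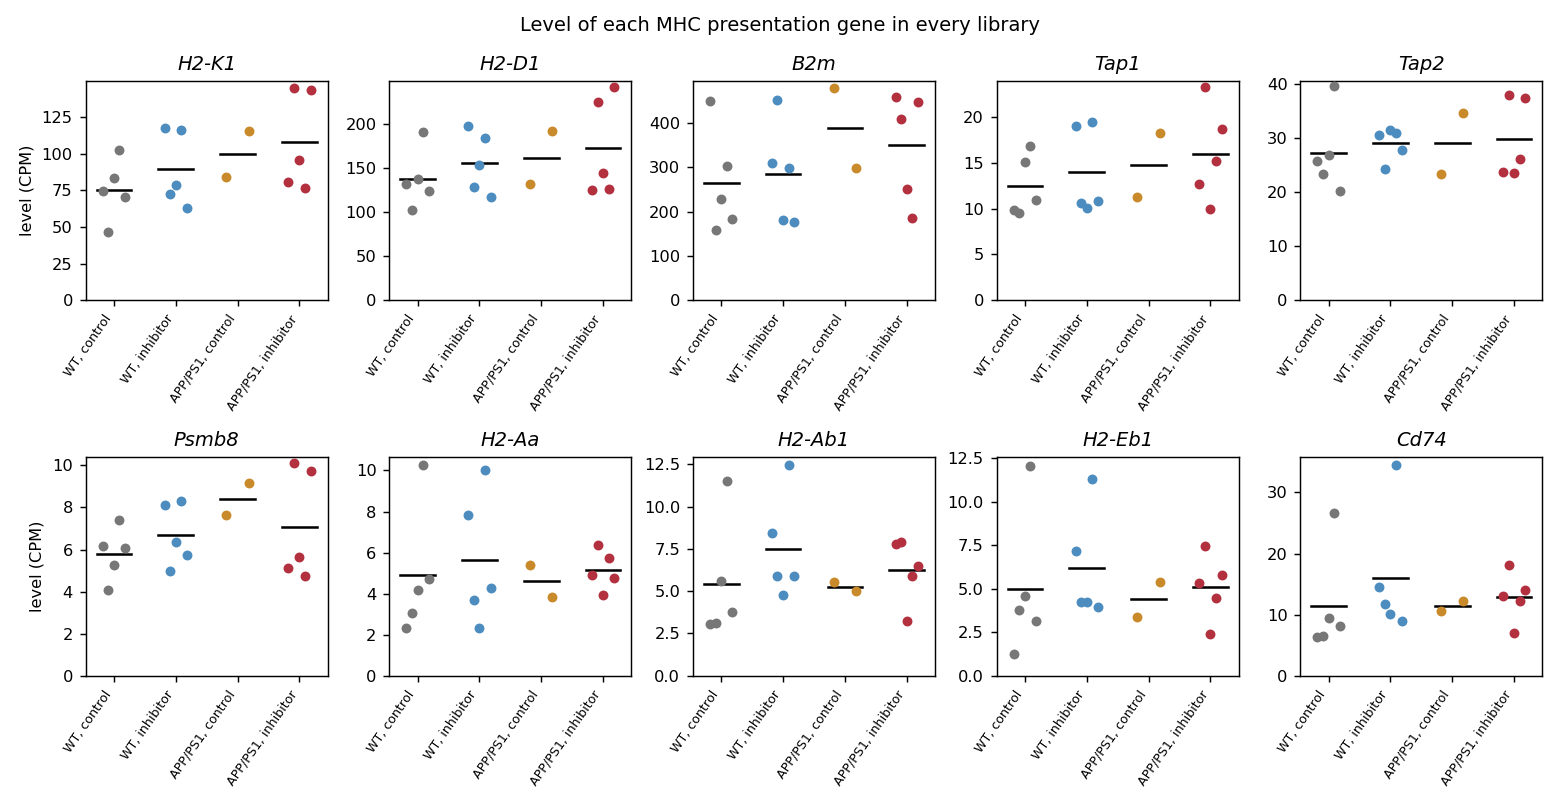
Level of each of the 10 members (CPM, linear axes from 0) in every library, with groups on the horizontal axis, 1 point per library and a bar at the group mean. The 4 groups overlap for 9 members; for Psmb8 both APP/PS1 libraries with control peptide lie above all 5 WT libraries with control peptide. For the 4 class II genes in the lower row the highest points are 1 WT library with control peptide and 1 WT library with inhibitor.

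H2-K1 (ENSMUSG00000061232, GRCm38 chr17:33996017-34000347, minus strand) encodes the K heavy chain. Its levels were 74.5, 46.3, 83.3, 102 and 70.7 CPM in WT with control peptide and 118, 72.4, 78.9, 116 and 63.2 CPM in WT with inhibitor. In APP/PS1 they were 84.4 and 116 CPM with control peptide and 80.6, 145, 96.2, 76.5 and 143 CPM with inhibitor. The highest 2 values belonged to APP/PS1 with inhibitor and the lowest to WT with control peptide, but the ranges of all 4 groups overlapped. H2-D1 (ENSMUSG00000073411, chr17:35262730-35267499, plus strand), the D heavy chain, was at 132, 102, 137, 191 and 123 CPM in WT with control peptide and 198, 128, 153, 184 and 117 CPM in WT with inhibitor. In APP/PS1 it was at 132 and 191 CPM with control peptide and 124, 225, 144, 126 and 242 CPM with inhibitor. The same libraries were high for both heavy chains, and again no group stood clear of another. Of the 50-base stretches of their transcripts, 9.63% for H2-K1 and 12.8% for H2-D1 also occurred in other genes, mostly of the same family, so their counts depend on how reads matching several genes were treated.

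The promoters of a heavy chain, of B2m and of class II chains are shown for the elements named below. Each holds the letters of some of the elements through which interferon and inflammatory signals are known to act on these genes. Windows are the 250 bases before the transcript start given by RefSeq (GRCm38.p6), 5′ to 3′ on the gene's strand. The H2-K1 window was chr17:34000348-34000597 and that of B2m was chr2:122147437-122147686. The class II windows were chr17:34287824-34288073 for H2-Aa and chr17:34305617-34305866 for H2-Eb1. Capitals mark matches, on either strand, to the Y box CCAAT, the X box, the interferon-stimulated response element or its shorter form GAANNGAAA, or the NF-kappaB consensus, some of which overlap.
H2-K1: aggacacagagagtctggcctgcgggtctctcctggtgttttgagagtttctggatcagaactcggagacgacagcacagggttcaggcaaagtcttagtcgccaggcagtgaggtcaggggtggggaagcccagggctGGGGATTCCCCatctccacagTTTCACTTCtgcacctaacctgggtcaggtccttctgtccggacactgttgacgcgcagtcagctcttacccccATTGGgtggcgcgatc
B2m: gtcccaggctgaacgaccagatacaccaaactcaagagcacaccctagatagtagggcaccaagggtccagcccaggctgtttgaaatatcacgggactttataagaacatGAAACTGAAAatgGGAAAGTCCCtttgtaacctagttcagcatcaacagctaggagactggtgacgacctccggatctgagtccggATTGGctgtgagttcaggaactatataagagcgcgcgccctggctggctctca
H2-Aa: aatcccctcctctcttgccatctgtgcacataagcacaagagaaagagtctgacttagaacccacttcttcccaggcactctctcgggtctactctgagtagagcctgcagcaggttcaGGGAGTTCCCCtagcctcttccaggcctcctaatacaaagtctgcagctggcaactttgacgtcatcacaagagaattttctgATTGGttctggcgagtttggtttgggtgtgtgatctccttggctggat
H2-Eb1: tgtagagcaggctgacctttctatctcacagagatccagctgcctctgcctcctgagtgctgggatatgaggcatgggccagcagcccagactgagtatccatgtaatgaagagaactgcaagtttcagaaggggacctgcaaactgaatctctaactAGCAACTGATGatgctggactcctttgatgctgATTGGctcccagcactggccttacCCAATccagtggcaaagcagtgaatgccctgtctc
In the H2-K1 window the NF-kappaB match GGGGATTCCCC lay 111 to 101 bases before the start and was followed by TTTCACTTC, the shorter interferon element read on the other strand, at 90 to 82 bases. The H2-D1 window held the same pair of matches, at 171 to 161 and 150 to 142 bases before its start, and 161 of 177 aligned bases of both windows were identical (91.0%). The B2m window held GAAACTGAAA, a match to the interferon-stimulated response element, at 139 to 130 bases and an NF-kappaB match at 126 to 117 bases before the start. Neither class II window matched either form of the interferon element, and the H2-Aa window held no X box match. Among 27025 promoter windows of the same length, 3.04% held the interferon-stimulated response element, 6.34% its shorter form, 3.75% the NF-kappaB consensus and 34.5% CCAAT. A further interferon pattern, TTCNNNGAA, was searched too and matched none of the printed windows, where 7.18% of all windows held it. Among the members' windows not printed, that of Psmb8 held it as TTCCCAGAA, at 97 to 89 bases before its start. The X box match AGCAACTGATG of H2-Eb1, at 92 to 82 bases before the start, is shared by 0.855% of windows. The shorter interferon form was added to the search after these sequences were seen. A match is a description of letters only. RefSeq windows were matched for 7 of the 10 members, and those of H2-D1, Tap1 and Psmb8 are not printed because all 250 bases lie in exons annotated in GENCODE vM21. Of the printed windows, that of H2-Eb1 has 88 bases in exons of Gm20513 and that of B2m has 1 base in an exon of B2m.

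B2m (ENSMUSG00000060802, chr2:122147686-122153083, plus strand), the light chain shared by all class I molecules, was high in some of the libraries that were high in the heavy chains it pairs with, and in others that were not. Its levels were 450, 158, 228, 303 and 184 CPM in WT with control peptide and 310, 452, 181, 300 and 177 CPM in WT with inhibitor. In APP/PS1 they were 479 and 298 CPM with control peptide and 460, 409, 251, 186 and 448 CPM with inhibitor. B2m was highest in the library with the most counts in each of the 4 groups, at 450, 452, 479 and 460 CPM in libraries of 17862965, 15271804, 16292707 and 14533239 counts. With group means removed, its log2 level and the log2 total count of the library had a Pearson r of 0.65 and a Spearman rho of 0.69 over 17 libraries. Without the 2 libraries farthest from the median total count, r was 0.74. For the other 9 members this r lay between -0.38 and 0.01, and between 0.0135 (Tap1) and 0.33 (H2-Ab1) without those 2 libraries. The part of library size in the B2m values was not tested.

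Tap1 (ENSMUSG00000037321, chr17:34187553-34197225, plus strand) and Tap2 (ENSMUSG00000024339, chr17:34203527-34216321, plus strand) form the peptide transporter. Tap1 was at 9.89, 9.53, 15.0, 16.9 and 11.0 CPM in WT with control peptide and 19.1, 10.6, 10.1, 19.5 and 10.8 CPM in WT with inhibitor. In APP/PS1 it was at 11.3 and 18.2 CPM with control peptide and 12.6, 23.2, 9.99, 15.2 and 18.7 CPM with inhibitor. The highest Tap1 library was APP/PS1 with inhibitor and the lowest WT with control peptide, and the groups overlapped. Tap2 had the narrowest range of the 10 members, from 20.3 CPM in WT with control peptide to 39.7 CPM in the same group, a ratio of 1.95, and its APP/PS1 libraries lay between 23.4 and 38.0 CPM. Psmb8 (ENSMUSG00000024338, chr17:34197721-34201454, plus strand), the immunoproteasome subunit encoded between them, was at 6.19, 4.09, 5.28, 7.41 and 6.07 CPM in WT with control peptide. It was at 8.13, 4.99, 6.37, 8.32 and 5.75 CPM in WT with inhibitor, 7.64 and 9.15 CPM in APP/PS1 with control peptide, and 5.12, 10.1, 5.65, 4.72 and 9.75 CPM in APP/PS1 with inhibitor. Both APP/PS1 libraries with control peptide were above all 5 WT libraries with control peptide for Psmb8, and the groups with inhibitor overlapped both. Exons of opposite-strand genes overlap 3.87% of the exon bases of Tap1 (Psmb9), 14.1% of those of Tap2 (Gm15821) and 14.7% of those of Psmb8 (Gm20496). The library kit keeps strand, but the strand setting of the counting is not given in the sources used here, so reads of these partners may be mixed.

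The class II genes varied most between libraries of the same group. Cd74 (ENSMUSG00000024610, chr18:60803848-60812652, plus strand), the invariant chain, was at 6.36, 6.50, 9.45, 26.7 and 8.16 CPM in WT with control peptide and 14.5, 11.7, 10.1, 34.4 and 8.94 CPM in WT with inhibitor. In APP/PS1 it was at 10.6 and 12.2 CPM with control peptide and 13.1, 18.2, 7.06, 12.2 and 14.1 CPM with inhibitor. The highest 2 libraries were WT replicate 4 with inhibitor and WT replicate 4 with control peptide, and every APP/PS1 library lay below both. H2-Eb1 (ENSMUSG00000060586, chr17:34305867-34316674, plus strand), the beta chain of the E molecule, was at 1.27, 3.77, 4.57, 12.1 and 3.14 CPM in WT with control peptide and 7.20, 4.21, 4.22, 11.3 and 3.96 CPM in WT with inhibitor. Its APP/PS1 levels were 3.40 and 5.41 CPM with control peptide and 5.31, 7.45, 2.39, 4.45 and 5.82 CPM with inhibitor. The same 2 WT libraries were the highest for H2-Eb1, and WT replicate 1 with control peptide was the lowest.

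The alpha and beta chains of the A molecule repeated this order at the top. H2-Aa (ENSMUSG00000036594, chr17:34282744-34287823, minus strand) reached 10.3 and 10.0 CPM in the 2 high WT libraries, against 2.31 to 7.85 CPM in the rest of WT and 3.83 to 6.35 CPM in APP/PS1. H2-Ab1 (ENSMUSG00000073421, chr17:34257689-34269419, plus strand) reached 11.5 and 12.5 CPM in them, against 3.07 to 8.41 CPM in the rest of WT and 3.26 to 7.90 CPM in APP/PS1. The ratio of the highest to the lowest library was 9.48 for H2-Eb1, 5.41 for Cd74, 4.44 for H2-Aa and 4.07 for H2-Ab1, and 1.95 to 3.13 for the 6 class I members. The within-group SD of log2 CPM was 0.59 to 0.79 for the class II members and 0.31 to 0.58 for the class I members, where the median over all genes tested was 0.25. The 2 libraries high in class II also held much RNA of choroid plexus epithelium, with Ttr, its most abundant marker, at 7381 CPM and 3281 CPM. Ttr was also high in libraries that were not high in Cd74. It was at 3805 CPM in WT replicate 3 with control peptide, where Cd74 was at 9.45 CPM. With inhibitor it was at 4266 CPM in WT replicate 5 and at 4323 CPM in APP/PS1 replicate 4, where Cd74 was at 8.94 and 12.2 CPM. The part of choroid plexus RNA in the class II levels of single libraries was not tested.

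Genotype was compared over both peptides first, since that comparison has the most libraries. None of the 10 members passed, where 0.587% of the 18753 genes tested passed (edgeR quasi-likelihood F test, Benjamini-Hochberg adjusted p under 0.05). None had an unadjusted p under 0.05 either, against 6.38% of all genes. All 6 class I members had log2 changes above 0 and all 4 class II members below 0, where 50.7% of all genes were above 0. The median log2 change was 0.24 over the class I members and -0.16 over the class II members, beside 0.0017 over all genes. The members' signs are not independent of each other, since their levels moved together between libraries, as described below. In bulk tissue, a different number of cells of a type and a different amount of RNA per cell cannot be told apart.

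The largest change of a member was that of B2m, with a log2 change of 0.40 ± 0.24 (SE) for APP/PS1 minus WT, or 1.32-fold with a 95% interval of 0.932 to 1.86 (edgeR adjusted p = 0.868). H2-K1 had the smallest p, with a log2 change of 0.32 ± 0.17 (SE), or 1.25-fold with an interval of 0.973 to 1.61 (edgeR adjusted p = 0.827). H2-D1 had a log2 change of 0.18 ± 0.16 (SE). Psmb8 had 0.26 ± 0.18 (SE), Tap1 had 0.22 ± 0.19 (SE) and Tap2 had 0.06 ± 0.14 (SE). These intervals include no change, and for the class I members they also include a rise of 1.27-fold (Tap2) to 1.86-fold (B2m). H2-Eb1 had the lowest value, at -0.21 ± 0.34 (SE), followed by Cd74 at -0.17 ± 0.31 (SE), H2-Ab1 at -0.15 ± 0.26 (SE) and H2-Aa at -0.08 ± 0.29 (SE). The interval of Cd74 ran from 0.568-fold to 1.39-fold. Without the 2 WT libraries high in class II, an alternative chosen after their values were seen, the log2 changes of the class II members were 0.17 to 0.34 and none passed, so their direction rests on those libraries. With the mean log2 level of the choroid plexus markers as a covariate, also chosen after seeing the data, none passed. The class II values then kept their direction over both peptides and with inhibitor. With control peptide alone, which has 2 APP/PS1 libraries, they turned to 0.18 (H2-Aa) to 0.27 (Cd74).

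**Figure D2:**
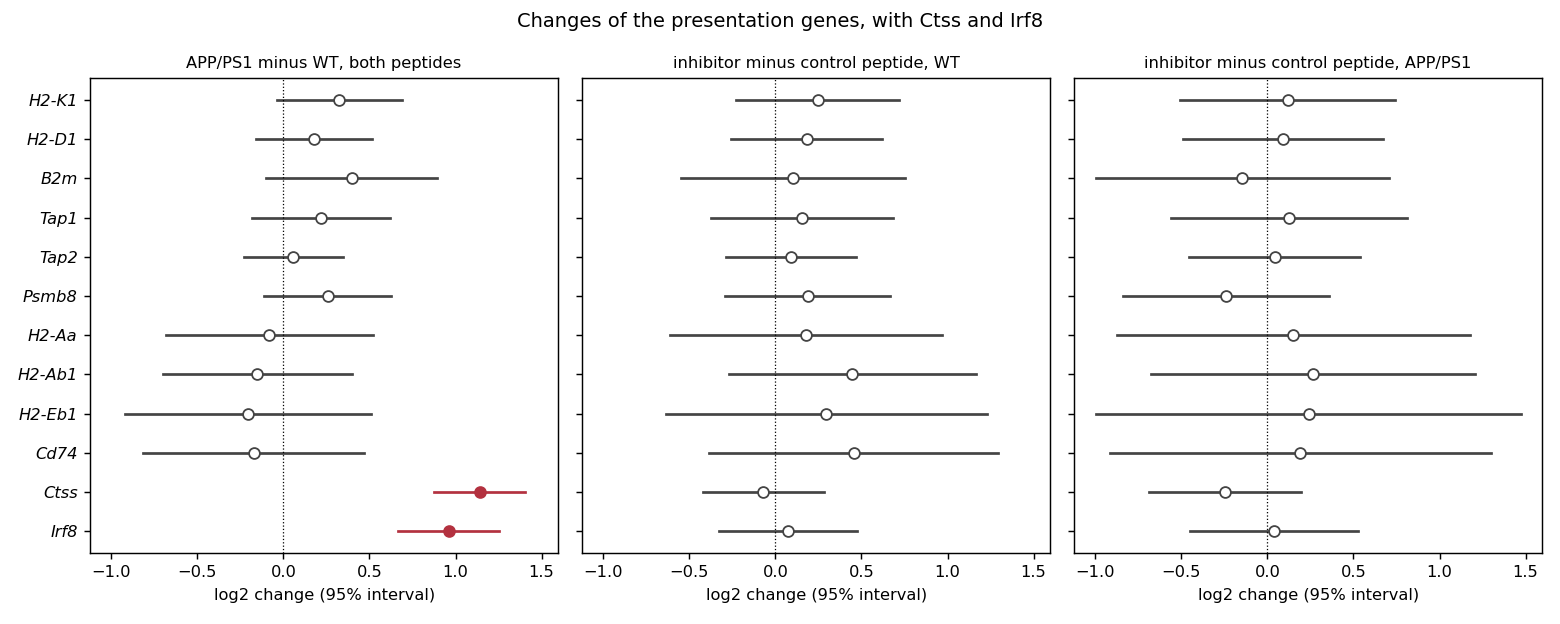
Log2 change with its 95% interval (horizontal axis) for the 10 members and for Ctss and Irf8 in 3 comparisons: APP/PS1 minus WT over both peptides, and inhibitor minus control peptide in WT and in APP/PS1. Filled red points passed the test (adjusted p under 0.05), and only Ctss and Irf8 did, both in the genotype panel, while the intervals of all 10 members cross 0 in each panel.

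Microglia carry class I and, when activated, class II, and their markers were higher in the APP/PS1 libraries. The 6 microglia markers summed to 193 to 267 CPM in WT and 237 to 411 CPM in APP/PS1. For genotype over both peptides all 6 had log2 changes above 0, where 50.7% of all genes did, and 4 of 6 passed, where 0.587% of all genes did. The 5 markers of plaque-associated microglia summed to 27.5 to 34.0 CPM in WT and 59.3 to 94.2 CPM in APP/PS1, and all 5 passed. With the mean log2 level of the 6 microglia markers as a covariate, the log2 changes of the 6 class I members were between -0.47 (H2-D1) and -0.02 (B2m), and none passed. This covariate is made of genes that differed between the genotypes in the same libraries, so the fit cannot separate microglia from genotype. The part of microglia in the class I values was not tested. The 5 perivascular macrophage markers summed to 37.6 to 111 CPM in WT and 41.0 to 79.1 CPM in APP/PS1, and 0 of 5 passed. Of the lymphocyte markers few were measurable: 1 of 4 for B cells and 0 of 4 for T cells passed the filter, with summed levels of 0.289 to 2.62 CPM and 0.105 to 1.94 CPM.

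The members did not pass with either peptide alone. With control peptide, 0 of 10 passed where 0.0533% of all genes did, and none had an unadjusted p under 0.05, against 3.97% of all genes. The median log2 change was 0.16, with 6 of 10 members above 0 beside 51.2% of all genes. Leaving out 1 library gave medians from -0.0118 (without APP/PS1 replicate 2 with control peptide) to 0.47 (without WT replicate 4 with control peptide), so the sign of this median is not settled. The largest were 0.55 ± 0.40 (SE) for B2m and 0.52 ± 0.29 (SE) for Psmb8. These values rest on 2 APP/PS1 libraries, at 479 and 298 CPM for B2m, whose log2 change was 0.17 without replicate 1 and 0.86 without replicate 2. Without replicate 2 the log2 changes of H2-D1, Tap1 and Tap2 were -0.06, -0.14 and -0.22. With inhibitor, 0 of 10 passed where 0.181% of all genes did, none had an unadjusted p under 0.05, against 3.38% of all genes, and the median was 0.067. That median was -0.0713 without APP/PS1 replicate 2 with inhibitor and 0.20 without WT replicate 4 with inhibitor. The largest value there was 0.31 ± 0.31 (SE) for B2m and the lowest was -0.27 ± 0.40 (SE) for Cd74. With inhibitor too, 6 of 10 lay above 0 where 50.6% of all genes did. Class I members lay above 0 and class II members below 0 with each peptide. All of these libraries also served the comparison over both peptides, so the signs are not independent of it. For Psmb8 the value was 0.52 with control peptide and 0.09 with inhibitor, and the test of that difference, the interaction below, did not pass.

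Other genes of the pathways were read from lists. Over all genes, 0.587% passed for genotype over both peptides, 6.38% had an unadjusted p under 0.05 and 50.7% lay above 0. Of 20 other class I genes, 0 passed for genotype over both peptides, 19 lay above 0 and the median log2 change was 0.13. None had an unadjusted p under 0.05. The smallest p-values were those of H2-T24, a non-classical heavy chain, with a log2 change of 0.38 ± 0.23 (SE), of Nlrc5, the class I transactivator, with 0.43 ± 0.25 (SE), and of H2-M3, which presents formylated peptides (edgeR adjusted p = 0.863, 0.863 and 0.904). Of 17 other class II genes, 15 were tested, 1 passed as higher in APP/PS1, 5 had an unadjusted p under 0.05 in either direction and 8 lay above 0. Their log2 changes ran from -0.32 to 1.14 with a median of 0.078, the highest being that of the gene that passed. That gene was Ctss, the lysosomal protease cathepsin S, which degrades the invariant chain. The 10 WT libraries held 16.8 to 27.5 CPM of Ctss and the 7 of APP/PS1 held 32.4 to 64.7 CPM, without overlap. Its log2 change was 1.14 ± 0.13 (SE), a rise of 2.21-fold (edgeR adjusted p = 3.59e-05). Ctss is also made in quantity by microglia. With the microglia covariate, which itself differed between the genotypes, the log2 change of Ctss was 0.58 (edgeR adjusted p = 0.158). The part of microglia in the Ctss values was not tested. For Cd74, which cathepsin S cuts, the direction depended on the statistic: the medians were 9.80 CPM in WT and 12.2 CPM in APP/PS1, the means were 13.7 ± 9.39 CPM (SD, n = 10) and 12.5 ± 3.38 CPM (SD, n = 7), and the fitted change given above did not pass.

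Of 12 interferon response genes, 1 passed for genotype over both peptides, where 0.587% of all genes did, and 7 had an unadjusted p under 0.05, against 6.38% of all genes. All 12 lay above 0 where 50.7% of all genes did, and the median log2 change was 0.45 beside 0.0017 over all genes. Irf8, a transcription factor of myeloid cells that interferon also raises, was at 5.71 to 10.9 CPM in WT and 10.6 to 19.2 CPM in APP/PS1, where 1 APP/PS1 library fell below the highest WT library. Its log2 change was 0.96 ± 0.14 (SE) (edgeR adjusted p = 0.000858). With the microglia covariate the log2 change of Irf8 was 0.70 (edgeR adjusted p = 0.202), and the part of microglia in it was not tested. With control peptide Ctss passed in edgeR, at 1.25 ± 0.21 (SE). There 0 of the 12 interferon genes passed in edgeR and 5 had an unadjusted p under 0.05, against 3.97% of all genes, while Irf8 passed in the DESeq2 Wald test (log2 change 0.97, DESeq2 adjusted p = 0.0465). With inhibitor both Ctss and Irf8 passed, at 1.08 ± 0.17 (SE) and 0.95 ± 0.18 (SE). When libraries were left out singly, Ctss with control peptide no longer passed in 5 of 17 fits and Irf8 with inhibitor in 8 of 17, and each kept its direction.

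The inhibitor was compared with the control peptide within each genotype, which asks whether NOX2 inhibition alters these genes. In WT, 0 of 10 members passed where 0% of all genes did, and none had an unadjusted p under 0.05, against 1.34% of all genes. All 10 lay above 0 in WT where 50.6% of all genes did, with a median log2 change of 0.19. That median was 0.0681 without WT replicate 4 with inhibitor and 0.36 without WT replicate 4 with control peptide. The range ran from 0.09 ± 0.18 (SE) for Tap2 to 0.45 ± 0.40 (SE) for Cd74, whose interval was -0.39 to 1.30. Leaving out WT replicate 4 with inhibitor gave Cd74 a log2 change of -0.02, and leaving out WT replicate 4 with control peptide gave 1.05. The value of Cd74 in WT thus turns on which of these libraries is present.

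In APP/PS1, 0 of 10 members passed for the inhibitor where 0% of all genes did, and none had an unadjusted p under 0.05, against 1.80% of all genes. The median log2 change was 0.12, and 8 of 10 lay above 0 where 50.2% of all genes did. It was -0.0823 without replicate 1 and 0.32 without replicate 2 of APP/PS1 with control peptide, so its sign rests on single libraries. The range ran from -0.24 ± 0.29 (SE) for Psmb8 to 0.27 ± 0.45 (SE) for H2-Ab1, with intervals of -0.84 to 0.36 and -0.68 to 1.21. Over both genotypes, 0 of 10 passed where 0% of all genes did, and 2.11% of all genes but no member had an unadjusted p under 0.05. The values there lay between 0.01 ± 0.24 (SE) for B2m and 0.38 ± 0.27 (SE) for H2-Ab1, with a median of 0.16 (0.0616 to 0.26 when 1 library was left out), and 10 of 10 lay above 0 where 51.4% of all genes did. The interaction, the inhibitor effect in APP/PS1 minus that in WT, called 0 of 10 members and 0% of all genes, and 0.843% of all genes but no member had an unadjusted p under 0.05. All 10 interaction values lay below 0, where 49.3% of all genes lay above 0, from -0.43 ± 0.37 (SE) for Psmb8 to -0.03 ± 0.62 (SE) for H2-Aa. The genotype and inhibitor comparisons share libraries, the 2 APP/PS1 libraries with control peptide among them. Of the other class I, other class II and interferon genes, 0 passed in the inhibitor comparisons and the interaction.

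Libraries of the same group differed in the members together. After the mean of each group was removed from log2 CPM, H2-K1 and H2-D1 had a Pearson r of 0.96 over the 17 libraries. The 15 pairs of class I members had r between 0.18 and 0.96, with a median of 0.75, and the lowest values all involved B2m, whose r with the other class I members was 0.18 to 0.43. The 6 pairs of class II members had r between 0.80 and 0.94, with a median of 0.88. The 24 pairs of a class I and a class II member had r between 0.06 and 0.80, with a median of 0.57. These values are descriptions without p-values, over points that share a library, its depth and its mix of cells. Tap1 and Psmb9, an immunoproteasome subunit read from the opposite strand, had r of 0.92, and their RefSeq windows share 225 bases between the starts of both genes. Tap1 and Tap2 had r of 0.75. Cd74 and its transactivator Ciita had r of 0.94 although Ciita was low, at 0.174 to 1.56 CPM, and H2-K1 and Nlrc5 had r of 0.79.

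**Figure D3:**
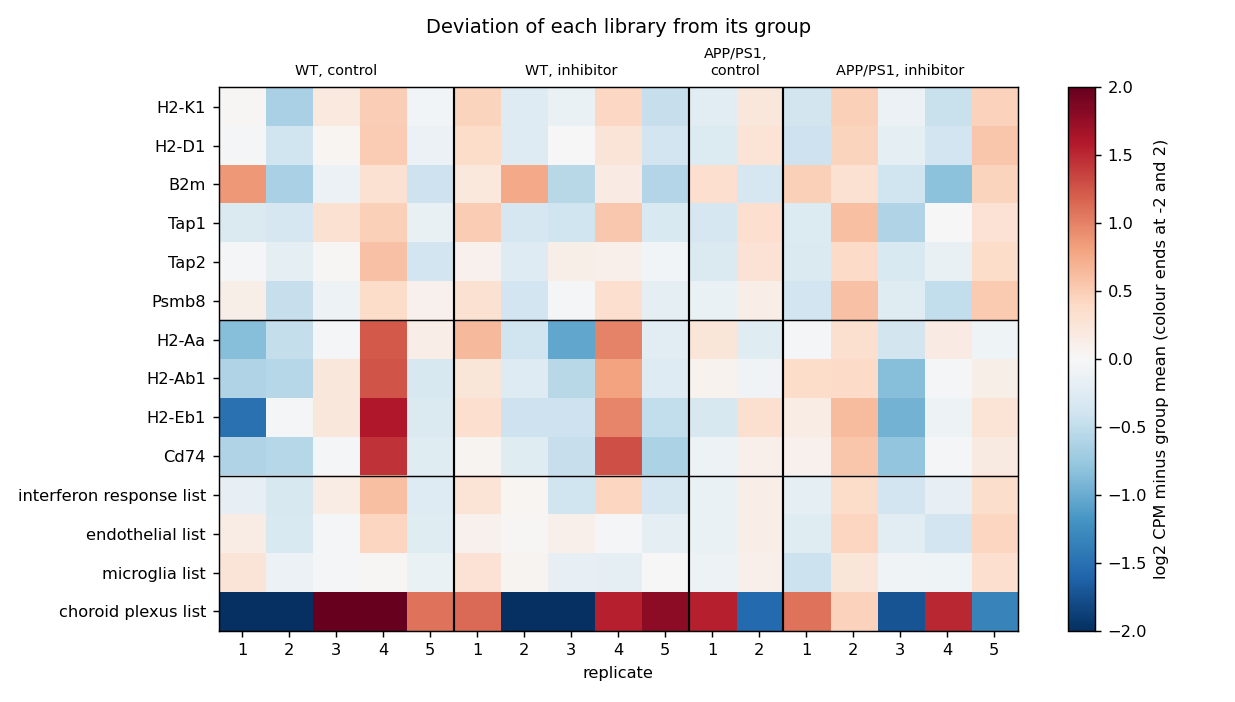
Deviation of each library from the mean of its group (log2 CPM, colour, with the scale ending at -2 and 2) for the 10 members in rows and for 4 gene lists below, with libraries in columns. WT replicate 4 is high for all 4 class II members with either peptide, APP/PS1 replicates 2 and 5 with inhibitor are high for the 6 class I members, and the B2m row departs from the heavy chains above it in other libraries.

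The classes were also compared with cell type markers over the same deviations. The mean deviation of the 6 class I members had r of 0.89 with that of 6 endothelial markers (rho 0.89, and 0.83 without the 2 libraries farthest from the median of the endothelial values). For the 4 class II members the same r was 0.42 (rho 0.32, and 0.08 without 2 libraries). For each list, the 2 libraries left out were those farthest from the median of that list, not of the members. With microglia markers r was 0.62 for class I and 0.01 for class II, and with perivascular macrophage markers 0.62 and 0.14. With pericyte markers it was 0.68 and 0.25, and with smooth muscle markers 0.57 and 0.52. Class II had its closest cell type lists in the only B cell marker tested, Cd79a, at 2 to 16 counts in a library (r 0.76, and 0.59 without 2 libraries), in 3 tested dendritic cell markers (0.75, and 0.49 without 2 libraries) and in choroid plexus markers (0.70, and 0.59 without 2), the last at 0.16 for class I. Of 6 dendritic cell markers the 3 tested were Flt3, Zbtb46 and Cd209a, which did not move alike. In WT replicate 4 with control peptide, high in class II, Flt3 was the lowest of its group at 17.95 CPM. Zbtb46 and Cd209a were the highest there, at 47.97 and 6.43 CPM. In WT replicate 4 with inhibitor, Flt3 was at 24.04 CPM, inside its group range of 19.78 to 27.29 CPM. The part of dendritic cells in the class II values was not tested. Neuronal markers gave r of -0.32 for class I and -0.64 for class II. Both classes moved with the 12 interferon response genes, with r of 0.90 for class I (rho 0.85) and 0.86 for class II (rho 0.85). The difference between the classes in these values was not tested.

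**Figure D4:**
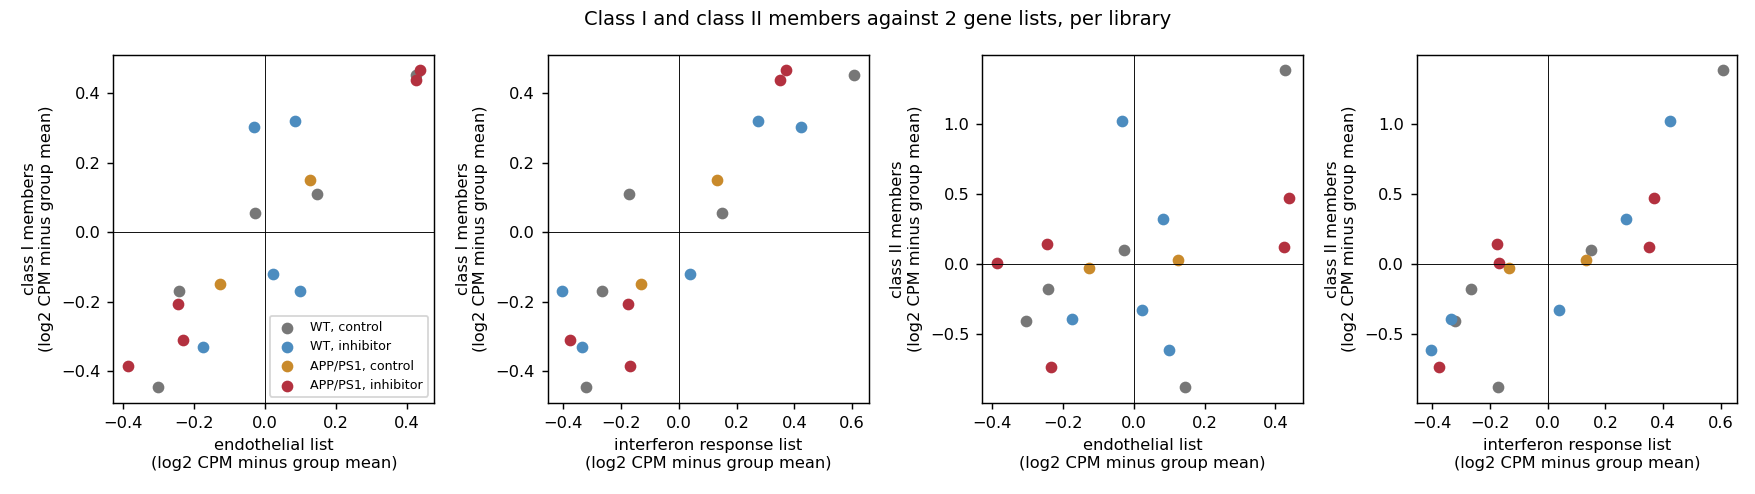
Mean deviation from the group mean (log2 CPM) of the class I members (left pair of panels) and the class II members (right pair), against that of the endothelial list and of the interferon response list, with 1 point per library coloured by group. Class I follows both lists (r 0.89 and 0.90), and class II follows the interferon list (r 0.86) but not closely the endothelial list (r 0.42).

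Among 13369 genes that averaged at least 5 CPM, those most like the mean of the class I members were Shroom4 (r 0.95), Casp8 (0.94), Irf7 (0.93), Sertad2 (0.93) and Prps1l3 (0.92), over 17 libraries. Irf7 is a master regulator of type I interferon and Casp8 an initiator of apoptosis, and Shroom4 shapes the actin cytoskeleton. Those most like the class II members were Syne2 (r 0.92), Agtrap (0.92), Nynrin (0.91), Klhdc7a (0.91) and Rnf213 (0.90). Rnf213, an interferon-inducible ubiquitin ligase and a susceptibility gene of moyamoya disease of the cerebral arteries, ranged from 93.4 to 233 CPM. Without the 2 libraries farthest from the median of the class II values, the r of these 5 genes was between 0.82 and 0.88.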

How the data were processed

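RNA-seq was analysed in 17 libraries of 4 groups. The authors deposited raw counts per Ensembl gene as whole numbers. The submitters' processing notes name cutadapt, STAR, HTSeq and DESeq2 and the builds mm10 and GRCh37, without versions or roles, and the annotation and the strand setting are not given in the sources used here. The table held 20 further value columns that matched no sample and were not used. Symbols, exon lengths and coordinates came from GENCODE vM21 (GRCm38), which gave a symbol to 42250 of 42687 IDs. Of 136 pairs of libraries, 0 held identical values.

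Genes were filtered with filterByExpr, which left 18753, scaled by TMM and tested in R 4.3.3 with the quasi-likelihood F test of edgeR 4.0.16, two-sided, with Benjamini-Hochberg adjustment over all genes and a threshold of 0.05. A model of 1 mean per group and an additive model of genotype and peptide were fitted to all 17 libraries, since APP/PS1 with control peptide has 2. Log2 CPM used a prior count of 2. The fits were tested on simulated data. The alternatives were the size factors of DESeq2 in edgeR, the DESeq2 1.42.0 Wald test, no filter, the compared groups alone, covariates of microglia or perivascular macrophage markers, and leaving out each library. Leaving out both libraries high in class II and a covariate of choroid plexus markers were chosen after seeing the data.

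The members and lists were chosen with earlier results of these data known. The rule for names takes all 10 members, any list gene that passed, otherwise up to 3 per list with the smallest p, the smallest and largest inhibitor changes, and the 5 genes most like each class. Ciita, Psmb9, Ttr, Flt3, Zbtb46, Cd209a and the pairs of genes with an r were chosen after their values were seen.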

Additional observations from a re-analysis of the deposited data

Results flagged for a closer look

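Cd74 stood apart in WT replicate 4 with control peptide, at 26.7 CPM against 6.36 to 9.45 CPM in the other 4 libraries of the group. The gap to its neighbour was 0.726 of the whole range on the log2 scale, above Dixon's 95% critical value of 0.71 for 5 samples. Each of the 10 members, Ctss and Irf8 was checked in the 3 groups of 5 libraries, and of 36 checks 1 passed the critical value, where about 1 in 20, or 1.8, is expected by chance.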

How the results depend on the processing

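The count of members that passed was 0 in all 7 comparisons under every alternative and in every fit that left out 1 library, and the smallest adjusted p of a member was 0.362 (H2-D1, genotype over both peptides, microglia covariate). The genes that passed over all genes moved from 110, 10 and 34 (both peptides, control peptide, inhibitor) to 182, 45 and 61 with DESeq2 and to 7, 2 and 2 with the microglia covariate. They moved to 19 for control peptide with the perivascular macrophage covariate, to 20 for inhibitor without both libraries high in class II, and to 70 to 125, 4 to 17 and 15 to 38 when 1 library was left out (70 and 4 without APP/PS1 replicate 2 with control peptide, 15 without WT replicate 5 with inhibitor). With 2 libraries in APP/PS1 with control peptide, leaving out 1 leaves a lone library, assumed to vary like the others. The causes were not tested.

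The direction of members that did not pass depended on the setting. With the microglia covariate the log2 changes for genotype were -0.30 (H2-K1), -0.47 (H2-D1), -0.0177 (B2m), -0.29 (Tap1), -0.39 (Tap2) and -0.42 (Psmb8) over both peptides. In the same order they were -0.29, -0.45, -0.0578, -0.27, -0.37 and -0.50 with inhibitor. With control peptide they were -0.32 (H2-K1), -0.52 (H2-D1), -0.39 (Tap1), -0.43 (Tap2), -0.21 (Psmb8) and 0.0238 (H2-Ab1). Without both libraries high in class II, H2-Aa, H2-Ab1, H2-Eb1 and Cd74 had 0.27, 0.17, 0.23 and 0.34 over both peptides, 0.40, 0.44, 0.48 and 0.57 with control peptide, and 0.19, 0.0237, 0.0800 and 0.20 with inhibitor. With the choroid plexus covariate they had 0.18, 0.19, 0.23 and 0.27 with control peptide, and H2-Ab1 had -0.0129 for inhibitor in APP/PS1. With the perivascular macrophage covariate, Cd74 had 0.0561 for genotype with control peptide and B2m -0.0017 for inhibitor over both genotypes. Irf8 with inhibitor did not pass with the compared groups alone (0.95, edgeR adjusted p = 0.109). Irf8 with control peptide passed with the DESeq2 Wald test (0.97, DESeq2 adjusted p = 0.0465).

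Leaving out 1 library gave, over both peptides, -0.0222 to 0.12 for Tap2, -0.20 to 0.0869 for H2-Aa, -0.22 to 0.0076 for H2-Ab1, -0.32 to 0.0144 for H2-Eb1 and -0.26 to 0.12 for Cd74. With control peptide it gave -0.0565 to 0.48 for H2-D1, -0.14 to 0.55 for Tap1, -0.22 to 0.35 for Tap2, -0.35 to 0.41 for H2-Aa, -0.20 to 0.45 for H2-Ab1, -0.53 to 0.50 for H2-Eb1 and -0.17 to 0.59 for Cd74. With inhibitor it gave -0.0078 to 0.25 for H2-D1, -0.0658 to 0.11 for Tap2, -0.0768 to 0.21 for Psmb8, -0.29 to 0.19 for H2-Aa, -0.34 to 0.0231 for H2-Ab1, -0.41 to 0.0793 for H2-Eb1 and -0.42 to 0.20 for Cd74. It gave -0.0204 to 1.05 for Cd74 (inhibitor in WT), -0.14 to 0.17 for B2m (inhibitor over both genotypes) and -0.50 to 0.27 for H2-Aa (interaction). The median of the interaction over the members, -0.11, was -0.40 to 0.0312. Depth limits the class II chains most, with as few as 22 counts in a library.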
